A study of Mus musculus with 27 samples.

Results

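The genes described here are the embryonic globins and the genes of the red cell programme around them: Hbb-y, Hbb-bh1, Hba-x, Slc4a1, Klf1, Gata1, Tal1, Epor and Alas2. They were chosen by name, as every probe set (a group of short probes on the array that reads 1 transcript region) whose only gene symbol in the array annotation was among these 9. All 9 genes were on the array, with 15 probe sets, out of 18193 genes and 34945 probe sets with 1 symbol. Hbb-y, Hbb-bh1 and Slc4a1 had 3 probe sets each and the other genes 1 each. Where a gene had several, its brightest probe set, by the mean of the 27 arrays, stood for it, and the rest are given beside it.

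Primitive red cells are the first blood cells of the mouse embryo and arise in the blood islands of the yolk sac from mesoderm that also gives endothelium. They fill with haemoglobin made of embryonic chains, which later red cells replace with adult chains. Tal1 (also called Scl) specifies blood from mesoderm, Gata1 and Klf1 switch on globin, haem and membrane genes in the committed cells, and the erythropoietin receptor carries the survival signal of the maturing cell.

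Expression was measured on Affymetrix arrays in mouse pluripotent cells of 3 lines, at day 0, day 5 and day 11 of differentiation. The embryonic stem cell line was R1, while H9 is an induced pluripotent stem cell line reprogrammed with 3 transcription factors (called 3F) and 19BL is an induced line made with 4 (called 4F). At day 0 all 3 lines were undifferentiated, on inactivated feeder cells in medium with leukaemia inhibitory factor (LIF). Day 5 and day 11 samples were embryoid bodies, cell aggregates that differentiated spontaneously in serum medium from which LIF was left out. Each kind of induced cell is a single line here, so the number of factors and the line cannot be told apart, and no agent that directs cells to blood is named in the labels. Each of the 9 groups had 3 arrays, labelled as biological replicates, and this number limits the precision. In such bulk RNA, fewer cells of a type and less RNA per cell cannot be told apart. Pou5f1, the pluripotency factor read as a check of the labelled state, lay between 12.50 and 12.98 on the log2 scale at day 0 in all 9 arrays, and at day 11 between 6.14 and 8.09 in R1, 7.03 and 7.70 in 3F and 9.08 and 10.50 in 4F.

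Promoters of 5 members are printed here because these genes differ in the results below: Hbb-y, Hba-x and Alas2 changed at day 11, while Klf1 and Epor did not pass the test in any comparison. Each run covers 250 bases before to 50 bases after the annotated start (RefSeq, GRCm38.p6), 5′ to 3′ on the gene's strand. Capitals mark the word AGATAA or its form TGATAA that starts with T, and the same words ending in G, which are AGATAG as well as TGATAG, all of which hold the GATA core, and the word CCACCC, the core bound by Klf1-type factors, on either strand. The Hbb-y promoter is chr7:103853158-103853457 on the minus strand, Hba-x is chr11:32276350-32276649 (plus), Alas2 is chrX:150547167-150547466 (plus), Klf1 is chr8:84901732-84902031 (plus) and Epor is chr9:21963527-21963826 (minus).
Hbb-y: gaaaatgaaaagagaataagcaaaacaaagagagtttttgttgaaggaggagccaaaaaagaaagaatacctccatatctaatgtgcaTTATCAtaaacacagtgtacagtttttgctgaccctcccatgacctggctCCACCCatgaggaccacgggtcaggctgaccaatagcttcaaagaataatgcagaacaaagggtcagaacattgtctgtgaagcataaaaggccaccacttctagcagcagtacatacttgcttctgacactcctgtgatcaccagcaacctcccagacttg
Hba-x: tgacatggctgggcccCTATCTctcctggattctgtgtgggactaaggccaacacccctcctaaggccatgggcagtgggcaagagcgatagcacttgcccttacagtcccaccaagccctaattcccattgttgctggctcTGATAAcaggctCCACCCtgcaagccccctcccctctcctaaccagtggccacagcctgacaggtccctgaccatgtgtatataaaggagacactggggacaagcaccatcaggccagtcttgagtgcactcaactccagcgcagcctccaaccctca
Alas2: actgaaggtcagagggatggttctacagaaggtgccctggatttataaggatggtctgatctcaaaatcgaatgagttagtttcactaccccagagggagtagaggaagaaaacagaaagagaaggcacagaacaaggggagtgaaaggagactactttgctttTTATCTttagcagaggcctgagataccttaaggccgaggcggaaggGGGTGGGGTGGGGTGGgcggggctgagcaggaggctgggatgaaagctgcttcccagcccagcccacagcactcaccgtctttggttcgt
Klf1: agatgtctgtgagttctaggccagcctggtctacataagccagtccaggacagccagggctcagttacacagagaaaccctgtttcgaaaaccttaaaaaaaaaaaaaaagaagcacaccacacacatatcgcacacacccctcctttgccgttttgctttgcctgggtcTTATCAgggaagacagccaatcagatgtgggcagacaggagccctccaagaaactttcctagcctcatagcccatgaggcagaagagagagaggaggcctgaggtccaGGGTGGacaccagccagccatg
Epor: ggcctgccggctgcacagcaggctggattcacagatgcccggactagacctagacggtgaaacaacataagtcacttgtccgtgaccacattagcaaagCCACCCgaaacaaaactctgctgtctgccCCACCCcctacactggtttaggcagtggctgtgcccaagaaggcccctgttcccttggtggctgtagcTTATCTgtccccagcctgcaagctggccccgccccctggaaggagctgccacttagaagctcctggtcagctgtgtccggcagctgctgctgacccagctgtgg
All 5 held at least 1 GATA word and at least 1 CCACCC. The GATA word nearest the start lay at -162 in Hbb-y, -108 in Hba-x, -86 in Alas2, -80 in Klf1 and -54 in Epor, counted in bases from the start site. Alas2 carried 3 CCACCC words on the minus strand that overlap each other (at -40, -35 and -30). The word CCAAT, searched in the same way, was in the Hbb-y and Klf1 windows. Of 32851 mouse promoters of the same length, 29.8% held a GATA word, 31.5% held CCACCC and 37.4% held CCAAT. Gata1 (CCACCC without a GATA word) and Tal1 (2 promoters, 1 of them with a GATA word) are not printed, and Hbb-bh1 and Slc4a1 are named only. A match describes the letters in this window and shows no binding.

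Between day 0 and day 11 the embryonic beta-like globins Hbb-y and Hbb-bh1 rose in all 3 lines, the alpha-like Hba-x rose in R1 and 3F, and Slc4a1 and Alas2 rose in 3F. Here "rose", "fell" and "called" mean an adjusted p under 0.05, Benjamini-Hochberg over all genes of the comparison in 1 limma fit of all 27 arrays, with a change of at least 2-fold. This fit takes 1 spread per gene for all groups, so a gene's SE is the same whether the arrays compared spread much or little. For Hbb-y the SD within a group ran from 0.06 to 2.29. From day 0 to day 11, 4 of 9 members rose in R1 (11.4% of all genes tested did), 6 in 3F (7.55%) and 2 in 4F (6.72%), and none fell (12.2%, 16.0% and 14.1% of all genes did). The median change of the members was 0.79 in R1, 2.52 in 3F and 0.08 in 4F, on the log2 scale, beside -0.04, 0.01 and -0.11 over all genes. From day 0 to day 5, 3 members rose in R1 (6.62% of genes), 1 in 3F (5.04%) and 0 in 4F (2.25%). In 4F at day 5 no member passed, while Epor alone was under an unadjusted p of 0.05, at 1.67-fold, and a fit of these 6 arrays alone called Hbb-bh1. From day 5 to day 11, 2 rose and 1 fell in R1 (7.10% and 4.53% of genes), 5 rose in 3F (6.16%) and 2 rose in 4F (6.66%). Comparisons within a line share arrays, as do those between lines, so they are not independent of each other.

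**Figure D1:**
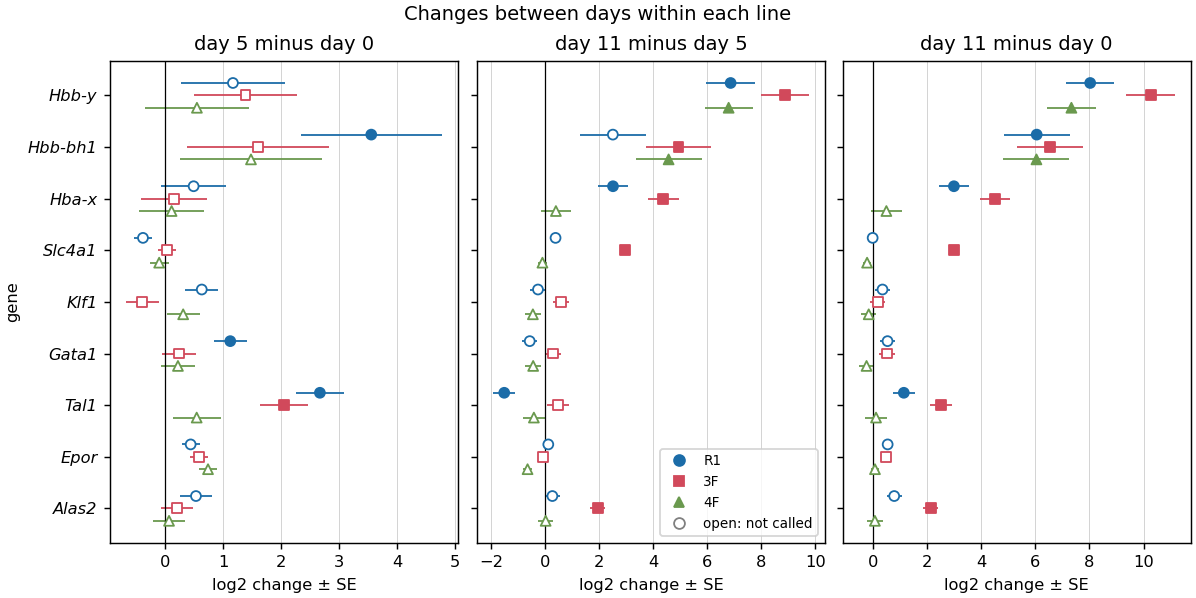
Log2 changes of the 9 genes between days within each line, with the standard error (SE) of the limma fit; filled symbols passed the test, open ones did not. At day 11 against day 0, Hbb-y lies at 8.03 in R1, 10.26 in 3F and 7.34 in 4F, while Slc4a1 and Alas2 are filled in 3F only.

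Tal1, the earliest to act of the transcription factors among the members, was higher at day 5 than at day 0 in R1 and 3F. At day 0 its log2 signal was between 4.64 and 5.18 in all 9 arrays. At day 5 it stood at 6.60, 7.14 and 9.06 in R1, at 6.63, 7.0 and 6.74 in 3F and at 5.49, 5.37 and 6.03 in 4F. Every day 5 array of each line was above every day 0 array of that line. The rise was called in R1 (2.67 ± 0.41 SE on the log2 scale, adjusted p 2.66e-05) and in 3F (2.05 ± 0.41, 0.000511), while 4F differed by 0.55 ± 0.41 (0.39). At day 11 the signal was 6.84, 6.20 and 5.19 in R1, 7.45, 7.27 and 7.05 in 3F and 4.97, 5.06 and 5.59 in 4F. All 3F arrays were then above all R1 and 4F arrays. At day 11 Tal1 was above day 0 in 3F (2.52 ± 0.41, adjusted p 2.29e-05) and, more weakly, in R1 (1.15 ± 0.41, 0.0261), and in 4F it differed by 0.12 ± 0.41 (0.848). From day 5 to day 11 it fell in R1 (-1.52 ± 0.41, adjusted p 0.00722), with groups that overlap. That fall rested on 2 arrays: it was -0.80 without R1 day 5 replicate 3 and -1.08 without R1 day 11 replicate 3, and it was not called in either case. The R1 rise to day 11 was not called without R1 day 11 replicate 1 (0.76) or replicate 2 (1.09), or without R1 day 0 replicate 2 (1.16) or replicate 3 (1.05), and with each array centred on its median it was 0.95 (adjusted p 0.0539).

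Ordered by its mean, Tal1 was highest in R1 at day 5 (7.60 ± 1.29 SD, n = 3), then in 3F at day 11 (7.26 ± 0.20) and in 3F at day 5 (6.79 ± 0.19). The groups at the top of this order overlapped, while the arrays of 3F at day 11 lay above those of 3F at day 5. Below them came R1 at day 11 (6.08 ± 0.83), 4F at day 5 (5.63 ± 0.35) and 4F at day 11 (5.20 ± 0.34), each overlapping its neighbour, and then the 3 day 0 groups.

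Gata1, the master factor of the red cell and megakaryocyte lines, moved less. In R1 it went from 6.91, 6.71 and 6.84 at day 0 to 7.56, 7.33 and 8.95 at day 5 and 7.92, 7.47 and 6.71 at day 11. The day 5 rise was called (1.12 ± 0.29, adjusted p 0.00362), with no overlap, but without R1 day 5 replicate 3 it was 0.62, which is under 2-fold. A limma fit of the compared arrays alone did not call it (adjusted p 0.0683). In 3F, Gata1 read 6.91, 7.05 and 6.63 at day 0, 7.28, 7.03 and 7.01 at day 5 and 7.28, 7.57 and 7.32 at day 11. In 4F the day 11 arrays (6.31, 6.50 and 6.30) were the lowest group mean of the 9, at 6.37 ± 0.12 (SD, n = 3). Neither line had a called change between days. Klf1, the erythroid factor that binds CCACCC words, was not called in any comparison or under any alternative setting. Its signal was 6.53, 6.53 and 6.59 in R1 at day 0, 6.78, 6.57 and 8.20 at day 5 and 7.16, 6.98 and 6.59 at day 11. Only R1 day 5 replicate 3 was above 7.19, the highest of the other 26 arrays. In 3F, Klf1 ran from 5.97 to 7.19 and in 4F from 6.11 to 6.84 over the 3 days. 

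R1 day 5 replicate 3 was the highest of its group at 9 of 9 members, and R1 day 11 replicate 3 the lowest of its group at 8 of 9. The former array also had the lowest Pou5f1 signal of R1 at day 5 (8.60, against 11.16 and 10.77), and the highest Nfe2 and Lyl1 signals. R1 day 11 replicate 3 had the lowest Pou5f1 signal of its group too (6.14, against 8.09 and 7.81), and the lowest Afp. Results that rest on these arrays are therefore given with and without them.

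Epor, the erythropoietin receptor, was never called, since its changes stayed under 2-fold. Its log2 signal was 8.12, 7.76 and 8.22 in R1 at day 0, 8.48, 8.38 and 8.58 at day 5 and 8.39, 8.87 and 8.50 at day 11. In 3F it read 8.34, 8.01 and 7.96, then 8.71, 8.56 and 8.81, then 8.37, 8.56 and 8.85. In 4F it read 7.75, 7.78 and 7.71, then 8.49, 8.37 and 8.61, then 7.64, 7.78 and 8.07. Every line was higher at day 5 than at day 0 with no overlap, by 0.44 ± 0.16 in R1 (adjusted p 0.0297), 0.59 ± 0.16 in 3F (0.0056) and 0.74 ± 0.16 in 4F (0.00141). At day 11 the 4F level was again near its day 0 level (0.08 ± 0.16, adjusted p 0.719) and below 3F (-0.76 ± 0.16, 0.000858) and R1 (-0.76 ± 0.16, 0.00109), in each case with no overlap and under 2-fold.

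Hbb-y, the embryonic epsilon-like beta chain, rose between day 5 and day 11 in all 3 lines. At day 0 it was between 3.72 and 4.18 in all 9 arrays. At day 5 it was 4.15, 3.95 and 7.46 in R1, 4.56, 7.24 and 4.20 in 3F and 4.75, 4.65 and 4.06 in 4F, so that 2 arrays, 1 in R1 and 1 in 3F, were above 7 and the others below 5. At day 11 it was 13.73, 12.97 and 9.44 in R1, 13.99, 14.35 and 14.29 in 3F and 12.09, 11.55 and 10.17 in 4F. Every day 11 array lay above every day 5 array. Against day 0 it rose by 8.03 ± 0.89 in R1 (adjusted p 1.63e-07), 10.26 ± 0.89 in 3F (3.9e-09) and 7.34 ± 0.89 in 4F (6.27e-07) on the log2 scale, and against day 5 by 6.86 ± 0.89 (4.71e-06), 8.87 ± 0.89 (8.75e-08) and 6.79 ± 0.89 (3.98e-06). All these rises were called under every alternative setting. Their size is less certain than their direction: the day 0 signal lay between the percentiles 1.43 and 7.35 of all genes on its array, no detection call was used to tell it from background, and another Hbb-y probe set, described below, gave smaller changes. In the order of means 3F at day 11 (14.21 ± 0.20 SD, n = 3) came before R1 (12.05 ± 2.29) and 4F (11.27 ± 0.99), and R1 and 4F overlapped.

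Hbb-bh1, the other embryonic beta-like chain and a neighbour of Hbb-y in the beta-globin cluster, was called at day 5 in R1 only in the fit of all arrays. It read 5.59, 5.63 and 6.04 in R1 at day 0, 7.24, 8.05 and 12.64 at day 5 and 13.87, 13.19 and 8.37 at day 11. In 3F the values were 5.66, 5.61 and 5.49, then 6.09, 8.89 and 6.58, then 12.67, 13.29 and 10.39. In 4F they were 5.41, 5.38 and 5.28, then 7.45, 7.08 and 5.99, then 12.52, 11.79 and 9.89. Day 5 was above day 0 with no overlap in each line, by 3.56 ± 1.22 in R1 (adjusted p 0.0258), 1.60 ± 1.22 in 3F (0.378) and 1.48 ± 1.22 in 4F (0.437). The R1 rise was 1.89 and not called without R1 day 5 replicate 3, and was also not called without R1 day 0 replicate 1 (3.48) or replicate 2 (3.49). In limma fits of the compared arrays alone, the R1 difference was not called (adjusted p 0.0707) and the 4F difference was (adjusted p 0.0152). Against day 0 the day 11 rise was 6.05 ± 1.22 in R1 (adjusted p 0.000257), 6.53 ± 1.22 in 3F (0.00011) and 6.05 ± 1.22 in 4F (0.00029). From day 5 to day 11 it rose in 3F (4.93 ± 1.22, 0.00249) and 4F (4.56 ± 1.22, 0.00482). In R1 the difference between these days was 2.50 ± 1.22 (0.145), and it was called without R1 day 5 replicate 3 (4.16) or without R1 day 11 replicate 3 (4.22). Unlike Hbb-y, Hbb-bh1 overlapped between all pairs of lines at day 11.

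Hba-x, the embryonic zeta chain that pairs with the beta-like chains in primitive red cells, differed between 3F and 4F at day 11. At day 0 all 9 arrays lay between 5.56 and 5.86, and at day 5 only R1 replicate 3 (7.18) was above 5.98. At day 11 it was 10.36, 9.41 and 6.45 in R1, 10.62, 10.31 and 9.62 in 3F and 6.51, 6.37 and 5.93 in 4F. The 3F and 4F arrays did not overlap, and R1 replicate 3 lay inside the 4F range. Hba-x rose over the 11 days in R1 (3.00 ± 0.57, adjusted p 0.00013) and 3F (4.52 ± 0.57, 6.9e-07), and in 4F it differed by 0.50 ± 0.57 (0.519). From day 5 to day 11 it rose in R1 (2.50 ± 0.57, 0.00175), with 1 overlapping array, and in 3F (4.37 ± 0.57, 2.31e-06). A limma fit of the compared arrays alone did not call this R1 rise (adjusted p 0.0967).

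Another 4 probe sets carry several globin symbols and were kept apart from the members, since they cannot be given to 1 gene; their values are in the closing section. Of the other globins and the globin chaperone, 3 of 10 listed genes had a probe set of their own. None of the 3 was called at day 11 in any line, and 1, Hba-a2 in 3F, was called at day 5 (1.05 ± 0.36, adjusted p 0.0282, where 5.04% of all genes rose). That call was lost without 3F day 0 replicate 1 (0.90) or replicate 3 (1.08), and without 3F day 5 replicate 2 (1.05) or replicate 3 (0.92).

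Alas2, the erythroid form of the first enzyme of haem synthesis, rose in 3F. Its log2 signal there was 4.54, 4.51 and 4.32 at day 0, 4.75, 4.70 and 4.55 at day 5 and 6.11, 7.15 and 6.53 at day 11. All 3 day 11 arrays of 3F were above every other array of the study. The rise was 2.14 ± 0.28 against day 0 (adjusted p 1.35e-06) and 1.93 ± 0.28 against day 5 (9.32e-06). In R1 it was 4.43, 4.78 and 5.09 at day 0, 4.91, 4.92 and 6.06 at day 5 and 5.79, 5.88 and 5.01 at day 11, a difference from day 0 to day 11 of 0.79 ± 0.28 (0.0245) that is under 2-fold and that was 1.07 and called without R1 day 11 replicate 3. In 4F all 9 arrays lay between 4.26 and 4.91. Of 7 other measured enzymes of haem synthesis, 0 were called at day 5 in any line, and at day 11 the only call was Urod, which makes coproporphyrinogen, in 4F (-1.02 ± 0.18, adjusted p 4.85e-05). Urod fell below 2-fold with cyclic loess scaling (-0.34) and without 4F day 0 replicate 2 (-0.94), 4F day 11 replicate 1 (-0.90) or 4F day 11 replicate 2 (-0.97). The list's median change at day 11 was 0.02 in R1, 0.28 in 3F and 0.09 in 4F, beside -0.04, 0.01 and -0.11 over all genes. In 4F, 14.1% of all genes fell from day 0 to day 11. From day 0 to day 5, 6.62% of all genes rose in R1, 5.04% in 3F and 2.25% in 4F.

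Slc4a1 (band 3), the anion exchanger and main membrane protein of the red cell, was called only in comparisons that include 3F at day 11. There it was 8.69, 8.64 and 9.08. In the other 24 arrays it lay between 5.40 and 6.19. The rise was 2.99 ± 0.16 against day 0 (adjusted p 7.76e-12) and 2.96 ± 0.16 against day 5 (2.26e-11), 7.96-fold and 7.79-fold. In R1 the difference from day 0 to day 11 was -0.00 ± 0.16 (0.988), and in 4F it was -0.21 ± 0.16 (0.323). Both 3F rises were called under every alternative setting. Of 12 other measured genes of the red cell membrane and its skeleton, 2 rose and 2 fell from day 0 to day 11 in R1 and in 3F, and 0 rose and 2 fell in 4F. Of all genes, 11.4% rose and 12.2% fell to day 11 in R1, 7.55% and 16.0% in 3F, and 6.72% and 14.1% in 4F. Gypc (glycophorin C, which other cells also make) rose by 2.07 ± 0.37 in R1 (adjusted p 6.1e-05) and 1.87 ± 0.37 in 3F (0.000186). Tmod1, which caps actin filaments in red cells and in muscle, rose by 2.67 ± 0.18 in R1 (1.64e-10) and 1.99 ± 0.18 in 3F (5.45e-09). Rhd and Dmtn fell in all 3 lines, with Rhd changes of -1.96 ± 0.18 in R1 (1.16e-08), -1.18 ± 0.18 in 3F (9.59e-06) and -1.55 ± 0.18 in 4F (3.33e-07). The list's median change was 0.14 in R1, 0.39 in 3F and -0.00 in 4F.

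Probe sets of the same gene did not always agree. Pearson's r of the 2 Hbb-y probe sets 1436717_x_at and 1436823_x_at over the 27 arrays, which share group and line, was 0.9994. The other Hbb-y probe set, 1450621_a_at, had r = 0.88 with both. It read 10.18, 9.11 and 5.64 in R1 at day 11, 13.17, 13.16 and 12.94 in 3F and 6.67, 6.21 and 5.75 in 4F. It separated 3F from both other lines, with 3F against R1 at 4.78 ± 0.61 (adjusted p 7.09e-05, over all probe sets) and 4F against 3F at -6.88 ± 0.61 (8.9e-08). The day 11 rise in 4F was 1.63 ± 0.61 (0.0354) by this probe set and 7.34 by the brightest. At day 5 it showed no array above 4.86. The 3 Hbb-bh1 probe sets had r of at least 0.977 with each other. For Slc4a1, 1434502_x_at followed the brightest probe set (r = 0.93), but read 6.83, 5.18 and 4.04 in R1 at day 11, a difference of 1.26 ± 0.37 from day 0 (0.0079) that the brightest did not show. Slc4a1 probe set 1431743_a_at stayed between 3.99 and 5.35 in all arrays.

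**Figure D2:**
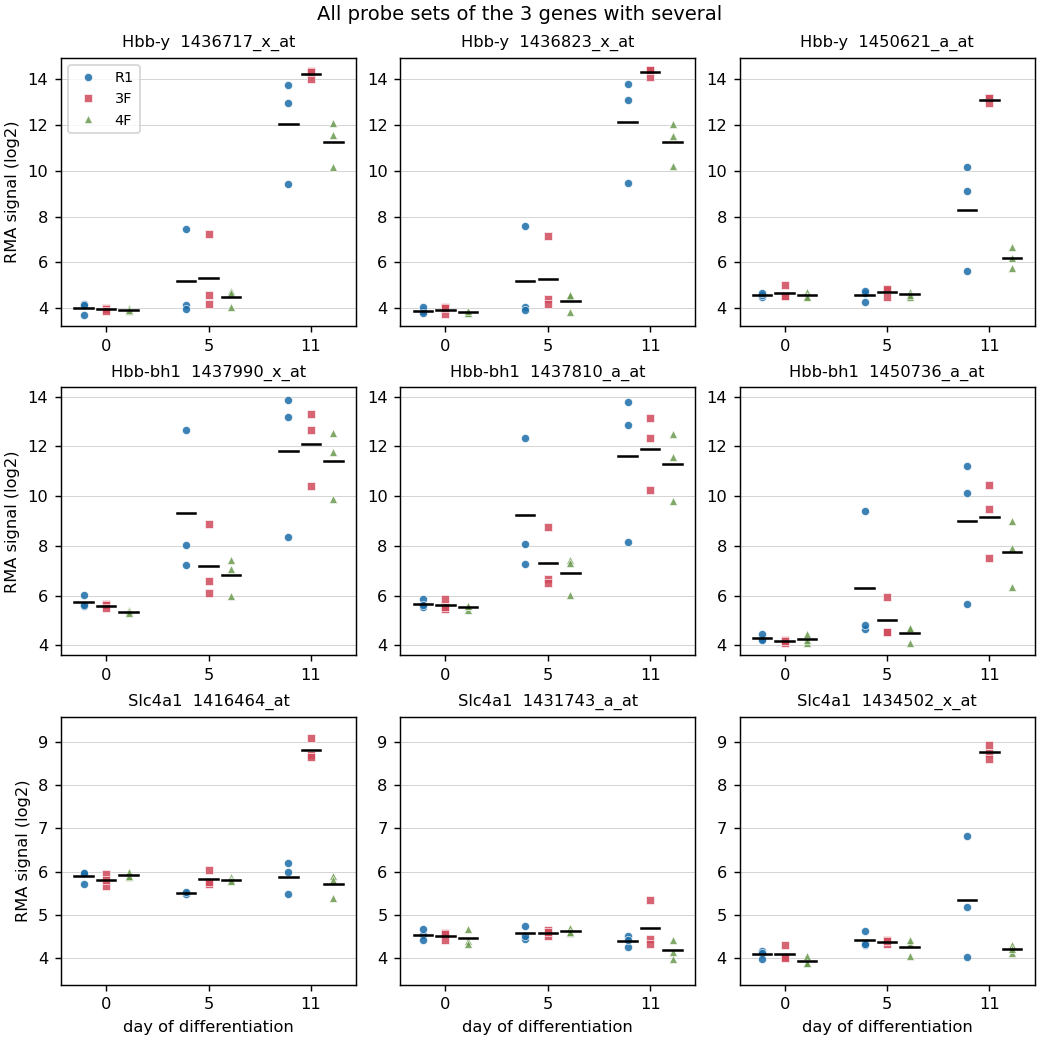
RMA log2 signal of all 9 probe sets of Hbb-y, Hbb-bh1 and Slc4a1 in each array by day, with symbols for the lines and a bar at each group's mean. Hbb-y probe set 1450621_a_at lies between 5.75 and 6.67 in 4F at day 11, where 1436717_x_at lies between 10.17 and 12.09, and Slc4a1 probe set 1431743_a_at is flat.

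Between lines at day 0, 0 of 9 members differed for each of the 3 pairs (3.09%, 1.12% and 1.98% of all genes differed in either direction for 3F against R1, 4F against R1 and 4F against 3F). By limma, 1 of these 27 day 0 values had an unadjusted p under 0.05, Epor for 4F against 3F. At day 5 0 members differed between 3F and R1 (0.374% of all genes), where 3 (Klf1, Gata1 and Alas2) had an unadjusted limma p under 0.05. None differed between 4F and 3F (7.48%), where Tal1 was the 1 member under an unadjusted 0.05 (-1.16 ± 0.41, adjusted p 0.0565), and Tal1 was called there without 4F day 5 replicate 3 (-1.36). Against R1, 4F was lower at 2 members at day 5 (3.14% of all genes were lower): Tal1 (a difference of -1.97 ± 0.41, adjusted p 0.00246) and Gata1 (-1.12 ± 0.29, 0.011), both with no overlap. Without R1 day 5 replicate 3 the Tal1 difference was -1.24 and still called, and the Gata1 difference was -0.62 and not called. Gata1 was also not called without 4F day 5 replicate 2 (-1.06), and a fit of these 6 arrays alone called neither gene.

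At day 11, 4F was below 3F at 6 of 9 members (4.91% of all genes were lower), and 7 of 9 did not overlap between these groups (29.6% of all genes did not). These were Hba-x (-3.91 ± 0.57, adjusted p 2.97e-05), Slc4a1 (-3.09 ± 0.16, 3.85e-11), Hbb-y (-2.94 ± 0.89, 0.0163), Tal1 (-2.05 ± 0.41, 0.000757), Alas2 (-1.91 ± 0.28, 3.68e-05) and Gata1 (-1.02 ± 0.29, 0.0103). The members' median difference was -1.91, beside -0.12 over all genes. Hbb-y was not called without 4F day 11 replicate 3 (-2.39), and Gata1 fell below 2-fold without 3F day 11 replicate 2 (-0.93), 4F day 11 replicate 1 (-0.99) or 4F day 11 replicate 3 (-0.98). The Gata1 difference was also under 2-fold with cyclic loess (-0.85) or median centring (-0.91) of the arrays. Hbb-bh1 differed by -0.71 ± 1.22 (0.683) and overlapped. Against R1, 4F was lower at 1 member (5.92% of all genes), Hba-x (-2.47 ± 0.57, 0.00268). The Hba-x groups overlapped, and a limma fit of the compared arrays alone did not call this difference (adjusted p 0.0949). Without R1 day 11 replicate 3, the lowest array of its group at 8 members, Gata1 (-1.33), Tal1 (-1.32) and Alas2 (-1.14) were called as lower too, and without 4F day 11 replicate 2 so was Gata1 (-1.06). The 3F arrays were above R1 at 1 member (0.231% of all genes were higher), Slc4a1 (2.91 ± 0.16, 9.53e-11). Alas2 was higher in 3F than in R1 by 1.04 ± 0.28, with an adjusted p of 0.0506 in the fit used throughout and of 0.0425 with the replicate number as a block. It was also called without 3F day 11 replicate 1 (1.28) or replicate 3 (1.07). Hbb-y (2.16 ± 0.89, 0.197) and Tal1 (1.18 ± 0.41, 0.134) were higher in 3F than in R1 with no overlap and did not pass. Hba-x differed by 1.44 ± 0.57 (0.177), and it was called without R1 day 11 replicate 1 (2.25).

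A change called in 1 line and not in another is not yet a difference between lines, so the changes themselves were compared. Over the 11 days, 4 members had a lower change in 4F than in 3F (3.01% of all genes did). They were Hba-x (-4.02 ± 0.80, adjusted p 0.00278), Slc4a1 (-3.20 ± 0.23, 3.22e-08), Tal1 (-2.40 ± 0.58, 0.0113) and Alas2 (-2.06 ± 0.40, 0.00216). None of these genes had a called change in 4F itself over these days. All 4 differences stayed called when any single array was left out, but that of Tal1 was not called with the RNA quality index described below as a covariate (-1.52, adjusted p 0.228). The change of Slc4a1 was higher in 3F than in R1 (3.00 ± 0.23, 6.33e-08, where 0.275% of all genes had a higher change), and that of Hba-x was lower in 4F than in R1 (-2.49 ± 0.80, 0.0376, where 7.03% had a lower change). The latter was lost on leaving out any 1 of 11 arrays, with values from -2.61 to -1.69 in those fits. For Hbb-y the difference between 4F and 3F was -2.93 ± 1.26 (0.147), and was called with the mean of its probe sets in place of the brightest (-4.22) and in a fit of these arrays alone (-2.93); for Hbb-bh1 it was -0.48 ± 1.72 (0.887). To day 5, 1 member differed in its change (2.06% of all genes had a lower change in 4F than in R1): the change of Tal1 was lower in 4F (-2.12 ± 0.58, 0.0382). That call was lost on leaving out any 1 of 8 arrays, and was -1.40 without R1 day 5 replicate 3. By limma, 0 members differed in their day 5 change between 3F and R1 (0.374% of all genes), where Klf1 and Gata1 had an unadjusted p under 0.05, or between 4F and 3F (3.47%), where Tal1 did.

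**Figure D3:**
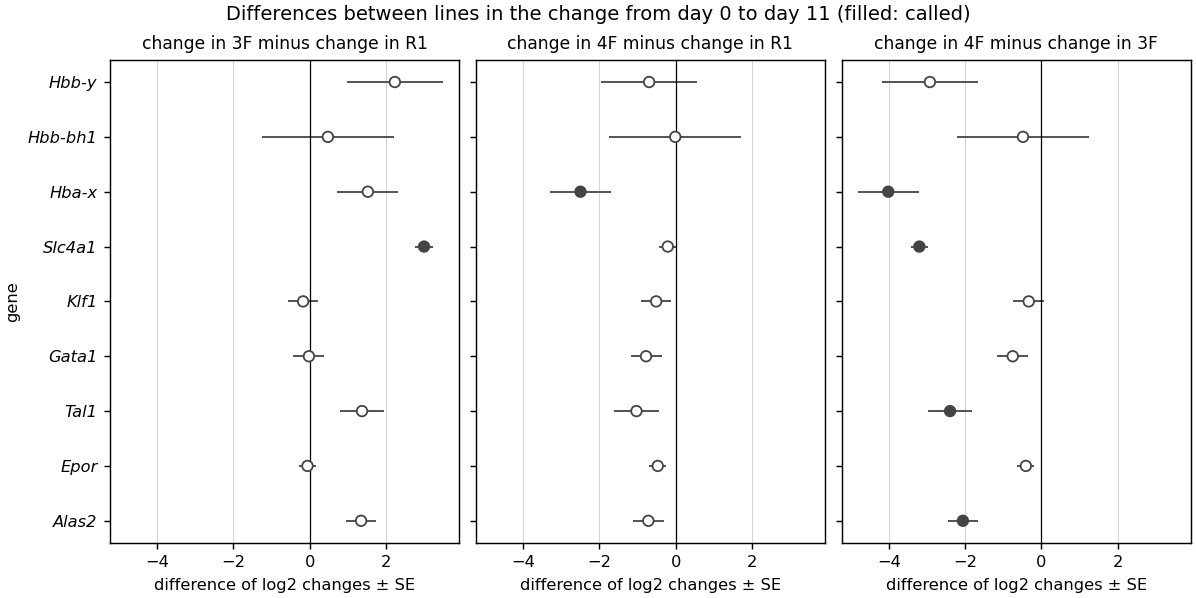
Difference between lines in the log2 change from day 0 to day 11, with the SE of the limma fit; filled points passed the test. Hba-x, Slc4a1, Tal1 and Alas2 lie between -4.02 and -2.06 for 4F against 3F, while Hbb-bh1 lies within its error of 0 for each pair.

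The erythroid factors act in complexes with other factors. Of 17 transcription factors and partners, 5 rose and 0 fell from day 0 to day 5 in R1, 4 rose and 2 fell in 3F, and 2 rose and 1 fell in 4F. Of all genes, 6.62%, 5.04% and 2.25% rose over these days in R1, 3F and 4F. The share of all genes that fell over these days is not given here, so these falls cannot be set against it. Nfe2 was among the 5 in R1, and its rise was 0.90, under 2-fold, without R1 day 5 replicate 3. A fit of the compared arrays alone did not call it either. To day 11, 6 rose and 2 fell in R1, 5 rose and 1 fell in 3F, and 1 rose in 4F. Of all genes, 11.4% rose and 12.2% fell to day 11 in R1, 7.55% and 16.0% in 3F, and 6.72% and 14.1% in 4F. Zfpm1 (Fog1, the Gata1 cofactor) rose at day 11 in all 3 lines, by 2.37 ± 0.33 in R1 (adjusted p 3.13e-06), 2.52 ± 0.33 in 3F (1.2e-06) and 2.28 ± 0.33 in 4F (5.8e-06). It was also called at day 5 in all 3, in 4F by 1.10 ± 0.33 (0.0191), where replicate 3 read 7.90 against 6.16 and 6.03 and the difference was 0.50 without it. That day 5 call in 4F was also lost without 4F day 0 replicate 2 (1.06) or replicate 3 (1.08). The change was under 2-fold with cyclic loess (0.97) or the mean of the Zfpm1 probe sets (0.76). A fit of the compared arrays alone did not call it. Lmo2, the bridge between Tal1 and Gata factors, read 8.61, 8.75 and 9.32 in R1 at day 5, 8.91, 8.52 and 9.57 in 3F and 6.66, 6.72 and 9.41 in 4F, so that 4F day 5 replicate 3 lay inside the range of the other lines. Lmo2 rose at day 5 in R1 (2.38 ± 0.53, 0.00116) and 3F (2.71 ± 0.53, 0.000412).

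Nfe2, a basic leucine zipper factor that acts on globin genes, rose at day 11 in 3F (1.93 ± 0.37, adjusted p 0.000161) and in R1 (1.06 ± 0.37, 0.024), and the R1 call was lost without R1 day 11 replicate 1 (0.70) or replicate 2 (0.92), and also without R1 day 0 replicate 1 or replicate 3, where it stayed above 2-fold. In 4F at day 11 it was 4.98, 4.82 and 5.01, near its day 0 values of 4.77, 4.93 and 4.69. Sox6, known in mouse for silencing embryonic globin in later red cells, rose in R1 (1.67 ± 0.23, 2.4e-06) and 3F (2.14 ± 0.23, 6.03e-08). Myb, needed for the later, definitive blood programme, fell at day 11 in R1 (-1.77 ± 0.43, 0.00146) and 3F (-2.61 ± 0.43, 2.23e-05), and had risen at day 5 in 4F (2.23 ± 0.43, 6.17e-04). At day 11, 4F was lower than 3F at 4 of these 17 genes (4.91% of all genes were lower), Nfe2 (-1.71 ± 0.37, 0.0015), Lmo2 (-1.61 ± 0.53, 0.0258), Sox6 (-1.36 ± 0.23, 0.000133) and Lyl1 (-1.09 ± 0.39, 0.0373).

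Genes of the erythropoietin and Kit signals and of iron uptake were counted in the same way, without a test of the lists. Of all genes, 11.4% rose and 12.2% fell to day 11 in R1, 7.55% and 16.0% in 3F, and 6.72% and 14.1% in 4F. Of 9 signalling genes, 3 rose and 1 fell at day 11 in R1, 1 rose and 2 fell in 3F, and 2 rose and 3 fell in 4F. Stat5b, which carries the receptor's signal, rose in all 3 lines, by 1.99 ± 0.24 in R1 (adjusted p 4.84e-07), 1.55 ± 0.24 in 3F (1.09e-05) and 1.48 ± 0.24 in 4F (2.48e-05), and Pim1, a kinase gene induced by cytokines, fell in all 3 by 1.48 to 1.94 on the log2 scale. Of 9 iron genes, 0 rose and 3 fell in R1 and in 3F, and 1 rose and 4 fell in 4F. Tfrc, the transferrin receptor through which red cell precursors take up iron, fell, with changes of -1.72 ± 0.15 in R1 (5.13e-09), -1.62 ± 0.15 in 3F (8.02e-09) and -1.78 ± 0.15 in 4F (4.45e-09).

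**Figure D4:**
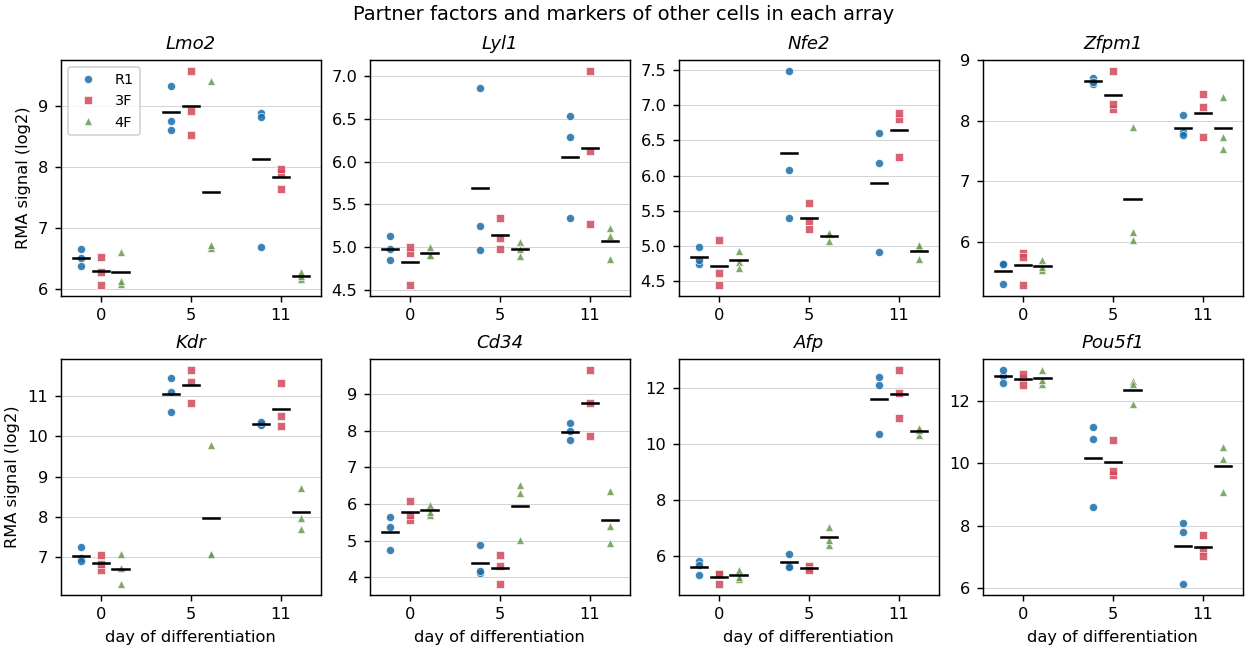
RMA log2 signal in each array by day of the partner factors Lmo2, Lyl1, Nfe2 and Zfpm1 (upper row) and of Kdr, Cd34, Afp and Pou5f1, markers of other cells (lower row), with a bar at each group's mean. Nfe2 at day 11 spans 6.26 to 6.89 in 3F and 4.82 to 5.01 in 4F.

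Markers of other cell types also changed between day 0 and day 11, each list in its own way. The counts below stand beside the shares of all genes that rose (11.4% in R1, 7.55% in 3F and 6.72% in 4F) or fell (12.2%, 16.0% and 14.1%) over these days. Of 10 yolk sac endoderm markers, 5 rose and 1 fell from day 0 to day 11 in R1, 6 rose in 3F and 7 rose in 4F, and the log2 of their summed signal was 11.97 to 13.90 in R1 at day 11, 12.47 to 13.94 in 3F and 12.88 to 13.28 in 4F, from 9.76 to 10.84 at day 0. Of 10 endothelial markers, 4 rose in R1, 5 in 3F, and 1 rose and 1 fell in 4F, with sums of 11.47 to 11.71, 11.57 to 12.36 and 10.09 to 10.64. At day 0 these sums were 10.41 to 10.58, 10.19 to 10.32 and 10.25 to 10.41. Kdr, the receptor that marks the mesoderm giving blood and endothelium, rose by day 5 in R1 (4.02 ± 0.47, adjusted p 1.06e-06) and 3F (4.43 ± 0.47, 2.44e-07), and in 4F it read 7.07, 7.06 and 9.79. Of 10 leukocyte markers, 6 rose in R1, and 1 rose and 3 fell in 3F and in 4F, with sums of 13.54 to 13.77, 13.46 to 13.66 and 13.57 to 13.75. The leukocyte sums at day 0 were lower in each line, at 11.52 to 12.79, 11.95 to 12.17 and 11.85 to 12.48. The 1 that rose in 3F and in 4F was Laptm5, by its brightest probe set. With the mean of its probe sets the change was -0.43 in 3F and -0.93 in 4F. Of 8 megakaryocyte and platelet markers, 2 rose in R1, Pf4 (3.74 ± 0.63, 3.39e-05) and Itga2b (1.60 ± 0.27, 3.05e-05), 1 rose and 1 fell in 3F, and 1 fell in 4F, with median sums of 11.99, 10.10 and 9.70. The day 0 medians were 9.90 in R1, 10.51 in 3F and 10.23 in 4F. Gata1, Tal1, Zfpm1 and Nfe2 are also made by megakaryocytes. All 8 pluripotency markers fell at day 11 in 4F and 7 of 8 in R1 and 3F, with sums of 13.86 to 14.75 in 4F, 11.08 to 12.57 in R1 and 10.52 to 11.80 in 3F. Of 10 fibroblast and feeder markers, 8 rose and 2 fell in R1, 5 rose and 2 fell in 3F, and 3 rose and 3 fell in 4F, with sums of 16.13 to 16.53, 16.20 to 16.82 and 14.03 to 15.39. At day 0 that sum was 13.08 to 15.49, in cultures grown on feeders. The part of these cells in the members' values was not tested.

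RNA quality differed between groups as well. The index used was the signal of control probe sets near the 3′ end of their transcripts minus that near the 5′ end, on the log2 scale, which rises as RNA is degraded or copied less far. It was 2.69 ± 0.23 (SD, n = 3) in 4F at day 11, against 1.94 ± 0.20 in R1 and 1.55 ± 0.23 in 3F at day 11 and 1.09 to 1.66 as group means at day 0 and day 5. R1 day 5 replicate 3, the highest of its group at all members, had the lowest index there (1.28, against 1.78 and 1.93). R1 day 11 replicate 3 also had the lowest index of its group (1.75, against 2.16 and 1.92). With the index as a covariate, 3 of the 6 differences between 4F and 3F at day 11 stayed called (Hba-x, Slc4a1 and Alas2). Hbb-y (-2.54), Tal1 (-0.96) and Gata1 (-0.56) did not, nor did the day 11 rise of Hbb-bh1 in 4F (5.21). The index was highest in the 3 arrays of 4F at day 11, so the index and that group cannot be fully told apart.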

How the data were processed

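RNA of 27 samples was labelled and hybridised to Affymetrix arrays, and the authors deposited 1 table of log2 values, made by RMA (background correction, quantile scaling and probe summary) per the submitters' processing notes; the RMA version is not given in the sources used here. These deposited log2 values lay between 2.997 and 15.672 and had array medians of 5.91 to 6.103, and the 3 arrays of each group limit the precision. Of 45101 probe sets, 34945 had 1 gene symbol, 932 several and 9160 none, and 64 were control probe sets, counted by name. Symbols came from the platform annotation, and 34741 probe sets matched a gene of the reference table by gene identifier, with 0 symbols that differed. The probe set with the brightest mean stood for each of 18193 genes.

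Differences were computed with limma 3.58.1 (lmFit and eBayes, R 4.3.3) in 1 fit of all 27 arrays by group, with Benjamini-Hochberg adjustment over all genes, an adjusted p threshold of 0.05 and a fold threshold of 2. The scripts were tested on simulated data. Tables were made in Python 3.11.15 with pandas 2.3.3 and numpy 2.4.6, and plots with matplotlib 3.10.9. The members and lists were chosen with earlier results of these data known. The text names all 9 members, from each list up to 5 called genes with the largest change from day 0 to day 11, and the 10 genes most like the members by each of 2 measures; Hba-a2 and Apoa1 are outside that rule and were named after their values were seen.

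Replicate numbers were tested for pairing by the correlation of same-numbered arrays' deviations from their group means. All 3 correlations exceeded 0.1 in 3 of 18 comparisons, 4F day 11 against day 5 (0.129, 0.105 and 0.152), 4F against R1 at day 0 (0.480, 0.252 and 0.328) and 3F against R1 at day 11 (0.120, 0.492 and 0.392), and the labels state no pairing. The settings varied were the scaling (cyclic loess or median centring), a filter that kept genes above 5.375 (the 40th percentile) in 3 or more arrays, averaging the probe sets of a gene, testing each probe set alone, a fit of the compared arrays alone, a variance trend with robust fit, the replicate number as a block, the RNA quality index as covariate, a threshold of 0.01 and leaving out each array. Promoters came from RefSeq (GRCm38.p6) by symbol, for 7 of 9 members.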

Additional observations from a re-analysis of the deposited data

Results flagged for a closer look

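A set of 7 tested differences between lines in the change from day 0 was found among the members. The log2 change of Tal1 from day 0 to day 5 was lower in 4F than in R1, with a difference of -2.12 (adjusted p 0.0382). From day 0 to day 11, Slc4a1 changed more in 3F than in R1, by 3.00 (6.33e-08), and Hba-x less in 4F than in R1, with a difference of -2.49 (0.0376). Against 3F, the change over the same days in 4F was lower, with differences of -4.02 for Hba-x (0.00278), -3.20 for Slc4a1 (3.22e-08), -2.40 for Tal1 (0.0113) and -2.06 for Alas2 (0.00216). The adjusted p are limma's, over all genes.

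Signal also appeared in probe sets that the comparisons leave out because they carry several globin symbols, and where every day 11 array lay above every day 0 array of its line. The beta-like probe set 1417184_s_at, with 4 symbols, was higher at day 11 than at day 0 by 3.24 on the log2 scale in R1 and 2.63 in 3F. At day 11 it read 11.95, 12.68 and 8.53 in R1, 10.78, 11.27 and 9.28 in 3F and 8.89, 8.01 and 8.11 in 4F. Of the alpha-like probe sets, each with 2 symbols, 1417714_x_at was higher by 2.78 in R1 and 4.59 in 3F, and in 4F it stayed between 5.17 and 5.71 in all arrays. Probe set 1428361_x_at was higher by 4.29 in R1, 3.11 in 3F and 1.20 in 4F, and 1452757_s_at by 5.96 in R1, 4.88 in 3F and 1.71 in 4F. The latter read 11.85, 12.50 and 7.97 in R1 at day 11, 11.63, 11.63 and 10.33 in 3F and 7.51, 6.72 and 6.36 in 4F. These are differences of group means with no test, and R1 replicate 3 was the lowest R1 array at day 11 for all 4 probe sets.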

How the results depend on the processing

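Of 216 member values (9 genes in 24 comparisons), 160 were not called under any of 37 settings, 27 of which left out an array. Of 43 calls, 27 held under every setting run for them, and no member changed direction while called. Fitting only the compared arrays gave 1 called member in place of 3 for R1 at day 5 against day 0 and for R1 at day 11 against day 5, 1 in place of 0 for 4F at day 5 against day 0, for 4F against 3F at day 5 and for their changes to day 5, and 0 for 4F against R1 at day 5 (2 otherwise), at day 11 (1), and for their changes to day 5 and to day 11 (1 each). With the RNA quality index, 4F had 1 call in place of 2 at day 11 against day 5 and against day 0, 4F against 3F at day 11 had 3 in place of 6, the change to day 11 had 2 in place of 1 for 3F against R1 and 0 for 4F against R1. A threshold of 0.01 left 1 of 2 for 4F against R1 at day 5, and 0 of 1 for their changes to day 5 and to day 11; it also lost Hbb-bh1 for R1 at day 5, Tal1 for R1 at day 11 against day 0, Hbb-y and Gata1 for 4F against 3F at day 11 (4 of 6 left) and Tal1 for their change to day 11 (3 of 4 left). Cyclic loess and the filter on dim genes each called 1 member, Tal1, for 4F against 3F at day 5, and loess and median centring called 0 for the change to day 11 of 4F against R1. Testing every probe set on its own gave 0 for the change to day 5 of 4F against R1. For 3F against R1 at day 11, 2 were called in place of 1 with median centring, without dim genes, with the mean of probe sets and with the robust variance trend, and 2 for their change to day 11 with median centring. With the replicate block, 2 members in place of 1 were called for 3F against R1 at day 11, and the block changed no other count of called members. The mean of probe sets gave 8 list calls in place of 14 for 3F at day 5 and 5 in place of 8 for 4F.

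Leaving out 1 array gave 1 to 3 called members for R1 day 5 against day 0, 3 to 5 for R1 day 11 against day 0, 1 to 2 for 4F against R1 at day 5, 0 to 1 for 4F against 3F at day 5, 1 to 2 for 3F against R1 at day 11, 1 to 4 for 4F against R1 at day 11 and 4 to 6 for 4F against 3F at day 11. For the changes it gave 0 to 1 (4F against R1, day 5), 1 to 2 (3F against R1, day 11) and 0 to 1 (4F against R1, day 11), and the other counts did not move. Reversals occurred among list genes. With the mean of probe sets, Laptm5 was at -0.74, -1.07 and -0.60 at day 5 in R1, 3F and 4F, and at -0.43 and -0.93 at day 11 in 3F and 4F. By its brightest probe set it was called higher in each of these comparisons with day 0. With the RNA quality index, 4F at day 11 against day 0 gave 0.32 for Hmox1, 1.09 for Kit, 2.39 for Tek and 0.54 for Dcn, all called lower without it. It gave -0.14 for Apoa1, called higher without it. The 4F counts of the lists at day 11 above include these genes as called without the index. The causes were not tested. The median of all genes for R1 day 11 against day 0 was -0.04, and -0.24 with median centring.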

Other observations

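Over the 27 arrays, which share lines and days, Hbb-y followed Hbb-bh1 (Pearson r 0.91) and Hba-x (0.86), and Hba-x followed Alas2 (0.89). Hbb-y was read here by its brightest probe set, 1436717_x_at, and Hbb-bh1 by 1437990_x_at. Hbb-y probe set 1450621_a_at had a lower mean in 4F at day 11 (6.21, against 11.27 for the brightest). Whether the brightest probe sets also take up signal of other globins was not tested. Gata1 followed Tal1 (0.83) and Klf1 (0.77). Between the 3 factors and the other members, values ran from 0.09 for Slc4a1 and Klf1 to 0.67 for Tal1 and Alas2, with 0.19 for Hbb-y and Klf1, 0.57 for Hbb-bh1 and Tal1 and 0.63 for Gata1 and Alas2, while Klf1 and Tal1 had 0.53.

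Among 6051 genes with a range of at least 2 on the log2 scale, the 10 with the highest r with Hbb-y were Afp (0.953), Rbp4 (0.952), Rasl11b (0.949), Maf (0.947), Angpt1 (0.943), Tgfbi (0.940), Rarb (0.936), Vnn1 (0.936), Cacna1h (0.935) and Rgn (0.933). Afp and Rbp4 encode secreted proteins of the yolk sac endoderm. Afp rose from day 0 to day 11 by 6.01 ± 0.38 (SE) in R1, 6.56 ± 0.38 in 3F and 5.15 ± 0.38 in 4F. By the mean r with all 9 members, Nfe2 (0.715) came first, then Hsd11b2 (0.676), St6galnac3 (0.673), Gucy1a1 (0.670), Tmem108 (0.665), Tmem204 (0.664), Ednrb (0.662), Lyl1 (0.662), Tcf21 (0.657) and Colec11 (0.656). These rankings describe 27 arrays in 9 groups and carry no test.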
